A study of Mus musculus with 28 samples.

Results

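Bile acids are made from cholesterol in hepatocytes, and the 10 genes described here cover their synthesis, their transport across the hepatocyte and the nuclear receptors that sense them: Cyp7a1, Cyp8b1, Cyp27a1, Baat, Slc10a1, Slco1b2, Slco1a1, Abcb11, Nr1h4 and Nr0b2. They were picked by symbol from the 49585 gene rows of a liver read-count table, and all 10 were among the 21583 genes tested. The RNA came from livers of male and female mice aged 5 to 7 months, WT or SIRT6-tg (overexpressing the deacylase SIRT6), with 7 mice in each combination of sex and genotype (4 groups). The transgenic mice and their WT littermates were backcrossed to C57BL/6JOlaHsd, all transgenic mice came from 1 founder line, and every mouse was fasted in the daytime before the liver was taken. The promoter of the transgene was not given in the sources used here.

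The classical route of bile acid synthesis starts with the hydroxylation of cholesterol by Cyp7a1, and an alternative route starts with Cyp27a1. Bile acids returning from the gut in portal blood are taken up again by carriers on the sinusoidal face of the hepatocyte and pumped into bile at the canalicular face. High bile acid levels activate the farnesoid X receptor, encoded by Nr1h4, which induces the small heterodimer partner, encoded by Nr0b2, and the export pump Abcb11, and lowers Cyp7a1 and Cyp8b1. In mouse liver several of the carriers and hydroxylases are sex-biased.

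RefSeq's promoter table for GRCm38.p6 held 8 of the 10 genes (not Cyp7a1 or Baat), and the 250 bases before the start site are shown for 4 of them. Abcb11 and Slco1b2 hold the inverted repeat searched, Cyp8b1 holds the CAAAGTCCA motif, and Slc10a1 is the carrier with the lowest adjusted p between genotypes in males. Capitals mark matches to the motifs searched. These were the nuclear receptor motif AGGTCA on both strands, its inverted repeat with 1 base between the copies (the arrangement that the farnesoid X receptor is known to bind), allowing 1 mismatch, and CAAAGTCCA and TCAAGGTCA on both strands, motifs of the kind bound by Hnf4a and Nr5a2.
Slc10a1 (chr12:80968706-80968955, minus strand) and the other 3 (Slco1b2, chr6:141629268-141629517, plus strand, Abcb11, chr2:69342617-69342866, minus strand, and Cyp8b1, chr9:121916306-121916555, minus strand) read as follows, 5′ to 3′.
Slc10a1: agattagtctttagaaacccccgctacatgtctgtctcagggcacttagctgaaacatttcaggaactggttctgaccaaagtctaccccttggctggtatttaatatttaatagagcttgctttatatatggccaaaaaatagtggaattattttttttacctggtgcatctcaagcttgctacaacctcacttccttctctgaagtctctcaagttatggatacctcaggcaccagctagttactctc
Slco1b2: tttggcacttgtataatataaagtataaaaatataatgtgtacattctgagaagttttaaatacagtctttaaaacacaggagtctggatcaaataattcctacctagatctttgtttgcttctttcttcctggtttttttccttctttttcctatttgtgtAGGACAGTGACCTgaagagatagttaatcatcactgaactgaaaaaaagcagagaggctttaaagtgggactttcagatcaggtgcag
Abcb11: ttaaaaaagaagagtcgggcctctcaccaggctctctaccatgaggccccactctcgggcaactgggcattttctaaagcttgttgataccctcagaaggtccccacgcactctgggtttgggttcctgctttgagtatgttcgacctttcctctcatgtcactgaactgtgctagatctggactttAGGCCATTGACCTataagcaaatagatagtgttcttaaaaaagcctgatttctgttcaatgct
Cyp8b1: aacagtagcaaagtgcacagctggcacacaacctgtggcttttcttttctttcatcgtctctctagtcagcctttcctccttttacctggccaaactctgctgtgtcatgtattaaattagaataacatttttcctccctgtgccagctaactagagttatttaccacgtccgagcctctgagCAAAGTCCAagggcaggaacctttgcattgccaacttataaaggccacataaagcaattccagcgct

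The inverted repeat with up to 1 mismatch lay 63 to 51 bases before the start of Abcb11 and 88 to 76 bases before that of Slco1b2, and 26 of 32841 promoter windows of the same length (0.0792%) held one. The CAAAGTCCA motif lay 67 to 59 bases before the start of Cyp8b1 and was in 0.384% of all windows. AGGTCA alone, which overlaps the inverted repeat, was in 14.0% of windows, and besides Abcb11 and Slco1b2 it was found upstream of Slco1a1 (on each strand) and Nr1h4. TCAAGGTCA, in 0.387% of windows, was in none of the 8. The table's start for Nr1h4 lies 26927 bases from the start in the gene annotation, so its window may belong to another transcript. TATAAA, searched on both strands and not in capitals, was in 12.4% of windows and in those of Cyp8b1, Slc10a1, Slco1a1, Slco1b2 and Nr0b2. None of the receptor motifs was in the Slc10a1, Cyp27a1 or Nr0b2 window, and a match is a description of the sequence, not of a bound site.

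The Sirt6 reads followed the labels. Male SIRT6-tg livers held 198 to 358 Sirt6 CPM (read counts relative to library size, with sizes scaled by edgeR's TMM method) and male WT livers 1.69 to 3.24 CPM, while female SIRT6-tg livers held 16.4 to 50.2 CPM and female WT livers 1.81 to 6.22 CPM. The genotype difference was 3.29 ± 0.35 larger in males on the log2 scale (fitted value ± SE, edgeR's quasi-likelihood test, adjusted p = 6.96e-06). The libraries held 18758863 to 35393069 counted reads. Gene positions below are in GRCm38, from the Gencode vM21 annotation.

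Among the 10 genes the levels per kilobase of exon spanned a wide range. Slco1b2 (282 ± 29 CPM per kb, mean ± SD, n = 7 female WT mice) and Slc10a1 (329 ± 33 in the same mice) were the highest, at or above the 99.0th percentile of tested genes in all 4 groups. Nr0b2, the orphan receptor that represses bile acid synthesis, was the lowest in males (12.97 ± 4.39 CPM per kb in male WT), and Slco1a1 was the lowest in females (2.71 ± 3.47 CPM per kb in female WT). Cyp7a1 stood at only 21.1 ± 7.7 CPM per kb in female WT livers and Cyp27a1 at 156 ± 27, with the bile acid conjugating enzyme Baat at 111 ± 7.2.

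**Figure D1:**
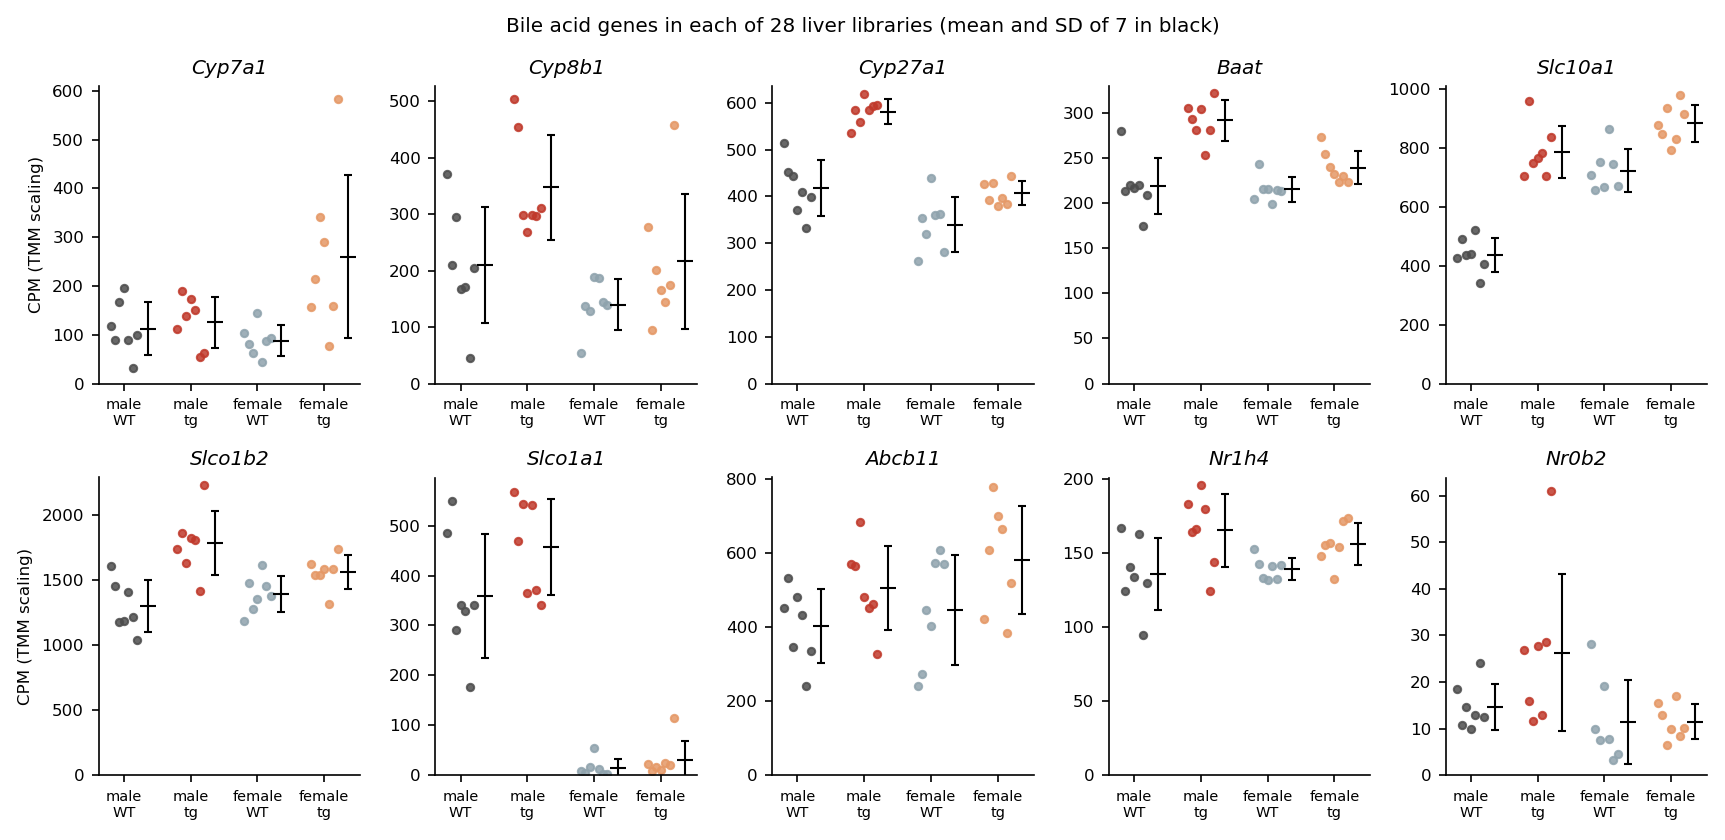
Each panel plots 1 gene in CPM (TMM scaling, linear axis from 0), with 1 point per liver in 4 groups of 7 and the mean ± SD in black (bars below 0 are cut off). Slc10a1 and Cyp27a1 in male SIRT6-tg mice sit above every male WT mouse, Slco1a1 is low in both female groups, and Cyp7a1 in female SIRT6-tg mice spreads from 77.7 to 582.5 CPM.

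In males, levels in CPM of the carriers Slc10a1 and Slco1b2, the side-chain hydroxylase Cyp27a1 and the conjugating enzyme Baat were higher in SIRT6-tg livers under TMM scaling, and none of the 10 genes passed as lower. With library size alone or scaling to hepatocyte genes, Slc10a1 alone stayed higher. These 4 passed an adjusted p under 0.05, where 9.68% of all tested genes passed as higher and 11.0% as lower. The median change of the 10 genes was 0.44 on the log2 scale against 0.06 over all tested genes, and 10 of the 10 fitted changes were above 0.

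Slc10a1 (ENSMUSG00000021135.7, chr12:80953183-80968705) encodes NTCP, the sodium-dependent carrier that brings conjugated bile acids into the hepatocyte. Male WT livers held 341.5 to 522 CPM (median 435) and male SIRT6-tg livers 703 to 958 CPM (median 766). The groups did not overlap. The change was 1.80-fold (95% interval 1.58 to 2.05, log2 0.85 ± 0.09, edgeR's quasi-likelihood adjusted p = 9.07e-08).

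Cyp27a1 (ENSMUSG00000026170.6, chr1:74713574-74737892) encodes the mitochondrial sterol 27-hydroxylase. Its level was 332 to 515 CPM (median 409) in male WT and 536 to 618.5 CPM (median 585) in male SIRT6-tg livers, again without overlap. The change was 1.39-fold (95% interval 1.21 to 1.60, edgeR adjusted p = 0.000566). With Slc10a1 it was 1 of 2 genes whose male groups stood apart in this direction, which 2.6% of all tested genes did.

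Slco1b2 (ENSMUSG00000030236.10, chr6:141629518-141686646), an organic anion carrier for unconjugated bile acids, ranged from 1039 to 1610 CPM (median 1212) in male WT and from 1414 to 2227 CPM (median 1808) in male SIRT6-tg livers. In 6 of 7 transgenic mice it was above every WT mouse. The change was 1.38-fold (95% interval 1.19 to 1.59, edgeR adjusted p = 0.00115). Baat (ENSMUSG00000039653.9, chr4:49489422-49506557), which joins bile acids to taurine or glycine, went from 175 to 279.5 CPM (median 217) in male WT to 253 to 322 CPM (median 293) in male SIRT6-tg livers. Its groups overlapped because of 1 male WT mouse, number 1, which was at 279.5 CPM, and the change was 1.33-fold (95% interval 1.18 to 1.497, edgeR adjusted p = 0.000526).

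The receptor Nr1h4 (ENSMUSG00000047638.15, chr10:89454234-89533585) lay close to the threshold. It measured 94.7 to 167 CPM (median 134) in male WT and 124 to 196 CPM (median 167) in male SIRT6-tg livers, and the groups overlapped widely. The fitted change was 1.22-fold (95% interval 1.05 to 1.41, edgeR adjusted p = 0.0544). It passed when male WT mouse 1 (adjusted p = 0.0357 by edgeR), male WT mouse 5 (0.0287) or male SIRT6-tg mouse 6 (0.0209) was left out, with log2 changes of 0.32 to 0.33. It also passed with edgeR's filterByExpr filter (0.27, adjusted p = 0.0434) and with 2 surrogate variables estimated from the counts (0.36, adjusted p = 0.00117 by edgeR).

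The other 5 genes did not pass in males. Cyp8b1 (ENSMUSG00000050445.4, chr9:121914356-121916305), the sterol 12-alpha-hydroxylase that directs synthesis toward cholic acid, ran from 45.0 to 371 CPM (median 205) in male WT and from 268 to 504 CPM (median 299) in male SIRT6-tg livers, and the fitted change of 1.66-fold had a 95% interval of 1.03 to 2.67 (edgeR adjusted p = 0.129). The male WT mouse at 45.0 CPM was number 6, which was also the lowest of its group for Cyp7a1, Cyp27a1, Slc10a1, Abcb11, Slco1a1, Nr1h4 and Baat, and highest for Nr0b2. Without it the log2 change of Cyp8b1 was 0.55 in place of 0.73.
Nr0b2 (ENSMUSG00000037583.2, chr4:133553376-133556536) ran from 9.81 to 23.98 CPM (median 12.9) in male WT and from 11.6 to 61.0 CPM (median 26.8) in male SIRT6-tg livers. Its fitted change of 1.79-fold had a 95% interval of 1.02 to 3.14 (edgeR adjusted p = 0.138), and leaving out male SIRT6-tg mouse 7, at 61.0 CPM, lowered the log2 change from 0.84 to 0.47. The groups overlapped.

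Cyp7a1 (ENSMUSG00000028240.2, chr4:6265612-6275633) in males ran from 31.8 to 195 CPM (median 99.1) in WT and from 54.0 to 189 CPM (median 138) in SIRT6-tg livers. The transgenic range lay inside the WT range, and the fitted change was 1.12-fold (95% interval 0.65 to 1.91). The interval leaves room for changes of the size seen in Slc10a1. Abcb11 (ENSMUSG00000027048.15, chr2:69238282-69342616), the pump BSEP that exports bile acids into the canaliculus, ran from 240 to 531.5 CPM (median 432) in WT and from 328 to 683 CPM (median 480.5) in SIRT6-tg livers, a fitted 1.26-fold (95% interval 0.94 to 1.67). Part of its exons overlaps 2 genes on the opposite strand (136 and 19 bases), and since the strand setting of the counting was not given, reads of Abcb11 and of these genes cannot be told apart there. Slco1a1 (ENSMUSG00000041698.11, chr6:141907282-141946962), an organic anion carrier, ran from 176 to 549 CPM (median 341.5) in WT and from 341 to 568.2 CPM (median 470) in SIRT6-tg livers, a fitted 1.27-fold (95% interval 0.57 to 2.83). Slco1a1 and Slco1b2 belong to a cluster of similar carrier genes on chromosome 6. The study kept only uniquely mapped reads, so reads that fit several of these genes are missing from their counts.

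**Figure D2:**
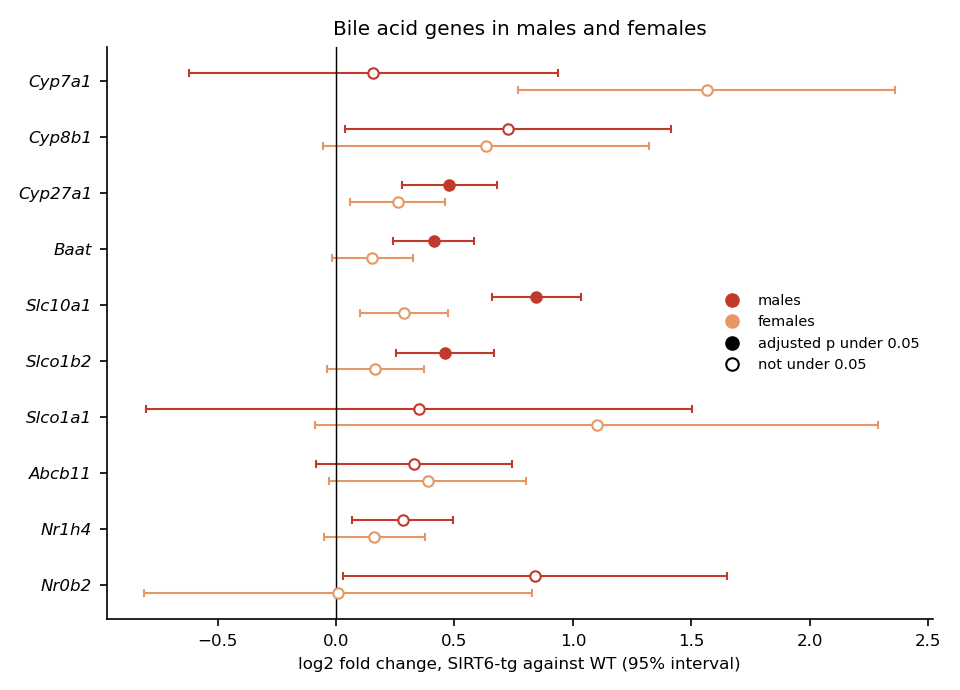
Points are fitted log2 fold changes (TMM scaling) of SIRT6-tg against WT with 95% intervals, males in red and females in orange, filled where the adjusted p was under 0.05. Filled points are Cyp27a1, Baat, Slc10a1 and Slco1b2 in males, and the widest intervals are those of Slco1a1.

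The male comparison rested on the scaling of libraries. TMM factors were 1.06 to 1.17 in male WT and 0.821 to 0.993 in male SIRT6-tg libraries, with no overlap. With library size alone, the median log2 change over all tested genes in males moved from 0.06 to -0.22, the calls went from 2090 higher and 2377 lower to 210 higher and 4084 lower, and Slc10a1 was the 1 gene of the 10 still called (log2 0.56 ± 0.09, edgeR adjusted p = 7.57e-06). Upper-quartile scaling gave 942 higher and 2649 lower, and median-ratio (RLE) scaling 1395 and 2511.
With libraries scaled to 15 hepatocyte reference genes (secreted liver proteins such as Alb and Apoa2), the median over all tested genes was -0.31, with 105 higher and 4035 lower, and Slc10a1 again was the 1 gene called (log2 0.48 ± 0.145, adjusted p = 0.0162 by edgeR). Cyp27a1 then stood at 0.11 ± 0.14, Slco1b2 at 0.10 ± 0.14 and Baat at 0.035 ± 0.13. Under that scaling the fitted values of Cyp7a1 (-0.21), Abcb11 (-0.03), Slco1a1 (-0.005) and Nr1h4 (-0.08) turned below 0, and with library size alone that of Cyp7a1 (-0.12) did. Slc10a1 passed under each of the 5 scalings, the other 3 called genes under TMM, RLE and upper-quartile scaling only.

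**Figure D3:**
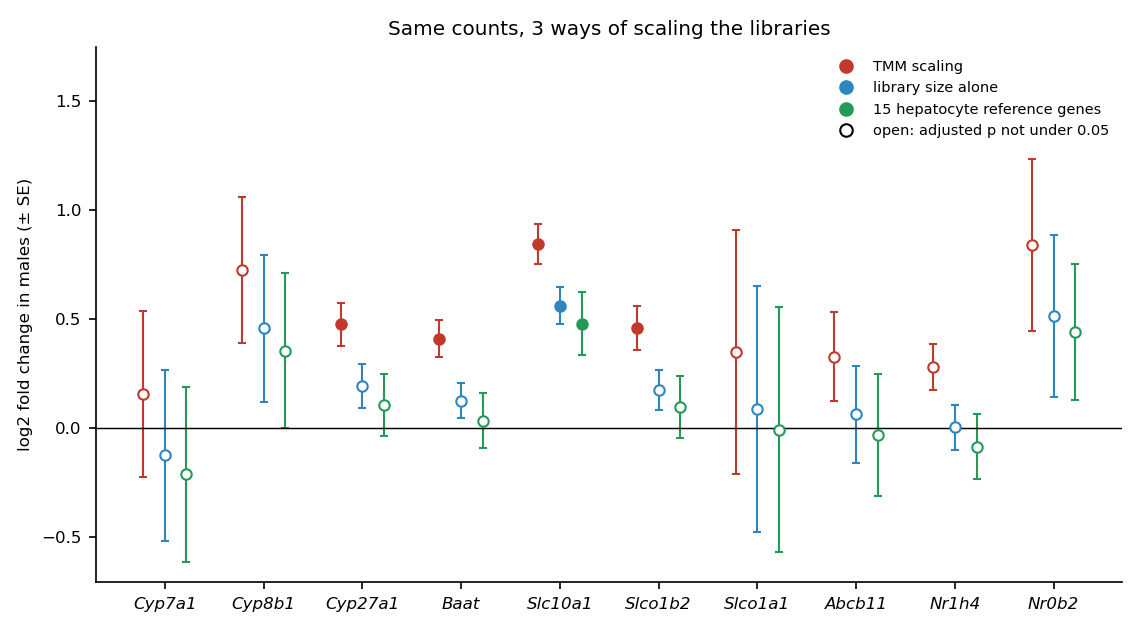
Fitted log2 fold changes (± SE) in males for the 10 genes from the same counts under TMM scaling, library size alone and scaling to 15 hepatocyte reference genes, filled where the adjusted p was under 0.05. Slc10a1 is filled under each of the 3 scalings, at 0.85, 0.56 and 0.48, while Cyp27a1, Baat and Slco1b2 are filled under TMM only.

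Markers of other cell types moved in the same comparison. Over all tested genes, 9.68% passed as higher and 11.0% as lower under TMM scaling. Of 15 hepatocyte reference genes 8 passed as higher in male SIRT6-tg livers under TMM scaling, with a summed level of 149100 to 208000 CPM against 126400 to 161200 CPM in male WT, but with library size alone 0 passed as higher and 1 as lower. Of 12 Kupffer cell and macrophage genes, 12 fell (summed 499 to 848 CPM against 609 to 1955 CPM), as did 10 of 11 T-cell and B-cell genes (9.04 to 14.4 against 20.4 to 53.9 CPM) and 7 of 8 stellate cell genes (281 to 374 against 399 to 627.5 CPM), and under each of the other scalings at least as many of these 3 lists passed as lower. No listed marker of these 4 sets was at 0 in every library. Of the zonation lists, 6 of 10 periportal genes passed as higher under TMM scaling, and 1 of 10 pericentral genes, which is near the share of all tested genes. With hepatocyte reference genes 0 of each did and 4 pericentral genes passed as lower. Of all 21583 tested genes, 105 passed as higher and 4035 as lower under that scaling, and 210 and 4084 with library size alone. Cholangiocyte genes gave 0 calls of 8 (1 at an unadjusted p under 0.05 by edgeR). Of 8 sinusoidal endothelium genes 1 fell, near the 11.0% of all tested genes that passed as lower.
Of 8 intestinal genes 5 were tested and 1 passed as higher under TMM scaling, and Fgf15, Fabp6 and Sis held 1, 2 and 5 reads over all libraries. In females no gene of these lists passed by edgeR, where 0.0232% of all tested genes passed as higher and 0.00463% as lower. At an unadjusted p under 0.05 by edgeR stood 0 to 4 of each list, and 5.62% of all tested genes. The part of other cell types in the bile acid gene values was not tested, and in whole-liver RNA fewer cells of a type and less RNA per cell cannot be told apart.

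In females, none of the 10 genes passed with edgeR's quasi-likelihood test, where 0.0232% of tested genes passed as higher and 0.00463% as lower, although the fitted change was above 0 for all 10. At an unadjusted p under 0.05 stood 3 of them, Cyp7a1, Slc10a1 and Cyp27a1, where 5.62% of all tested genes did, and the median change of the 10 was 0.27 against 0.00 over all tested genes. DESeq2 called 24 of the 21583 tested genes as higher and 15 as lower in females. Of the 10 genes, 1 passed as higher with it.

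That gene was Cyp7a1, the rate-limiting enzyme of the classical route. Female WT livers held 44.0 to 145 CPM (median 87.8) and female SIRT6-tg livers 77.7 to 582.5 CPM (median 214). In 6 of 7 transgenic females Cyp7a1 exceeded every WT female, and the 1 exception was mouse 5. The fitted change was 2.96-fold (95% interval 1.70 to 5.13), with an unadjusted p of 0.000419 and an adjusted p of 0.218 by edgeR's quasi-likelihood test and 0.0137 by DESeq2. Over the other fits tried, single-mouse omissions included, the adjusted p ran from 0.0137 to 0.53. Without female SIRT6-tg mouse 7, at 582.5 CPM, the log2 change was 1.23 in place of 1.56.

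Slc10a1 in females went from 658 to 864 CPM (median 708) in WT to 793.5 to 978 CPM (median 878) in SIRT6-tg livers. In 4 of 7 transgenic females it was above every WT female. The fitted change was 1.22-fold (95% interval 1.07 to 1.39, edgeR adjusted p = 0.436).
Cyp27a1 in females ran from 263 to 440 CPM (median 353) in WT and from 381 to 443 CPM (median 397) in SIRT6-tg livers, and its fitted change was 1.20-fold (95% interval 1.04 to 1.38, edgeR adjusted p = 0.636). The groups overlapped, with 1 transgenic female above every WT female and no transgenic female as low as the WT median.

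Slco1a1 was scarce in females and uneven between mice. Female WT livers held 2.41 to 54.2 CPM (median 7.73) and female SIRT6-tg livers 8.68 to 115 CPM (median 20.4). The fitted 2.14-fold change (95% interval 0.94 to 4.89) moved from a log2 value of 1.10 to 0.20 without female SIRT6-tg mouse 7 and to 1.996 without female WT mouse 4, and in neither case did it pass (adjusted p of 1.0 and 0.255 by edgeR).
Cyp8b1 ran from 53.4 to 188 CPM (median 140) in female WT and from 94.4 to 457 CPM (median 175) in female SIRT6-tg livers, a fitted 1.55-fold (95% interval 0.96 to 2.496). Female SIRT6-tg mouse 7 was the highest of its group for both, as it was for Cyp7a1, Cyp27a1, Slco1b2 and Nr1h4. Abcb11 ran from 240 to 609 CPM (median 447) in female WT and from 384.5 to 777 CPM (median 608) in female SIRT6-tg livers, a fitted 1.31-fold (95% interval 0.98 to 1.74).

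Slco1b2 ran from 1183 to 1617 CPM in WT and from 1316 to 1739 CPM in SIRT6-tg females (1.12-fold, 95% interval 0.97 to 1.29). Baat ran from 198 to 243 CPM in WT and from 223 to 272.5 CPM in SIRT6-tg females (1.11-fold, 95% interval 0.99 to 1.25). The range of each of these overlapped between genotypes, with 2 transgenic females above every WT female in both. Nr1h4 ran from 132 to 153 CPM in WT and from 132.5 to 174 CPM in SIRT6-tg females, 5 of 7 of which were above every WT female (1.12-fold, 95% interval 0.97 to 1.30, edgeR adjusted p = 1.0). Nr0b2 ran from 3.18 to 28.1 CPM in WT and from 6.54 to 16.9 CPM in SIRT6-tg females (1.01-fold, 95% interval 0.57 to 1.77). No gene of the 10 had female groups that stood apart, which 0.0417% of tested genes did in the higher direction.

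Whether the genotype change differed between males and females was tested as an interaction. Sirt6 was 9.31-fold higher in male than in female SIRT6-tg livers, so sex cannot be told apart from the level of the transgene here. The test passed for 1 of the 10, Slc10a1, whose change was 0.56 ± 0.13 larger in males on the log2 scale (95% interval 0.29 to 0.82, edgeR adjusted p = 0.00832), where 1.2% of tested genes passed in that direction and 3.84% in the other. This call too depended on scaling: the difference was 0.27 (adjusted p = 0.195 by edgeR) with library size alone and 0.11 (adjusted p = 0.745) with hepatocyte reference genes.
For Cyp7a1 the difference pointed the other way, -1.41 ± 0.54 (95% interval -2.51 to -0.30), and did not pass by edgeR (adjusted p = 0.14), although it did with hepatocyte reference genes (-1.94, adjusted p = 0.0269 by edgeR). For the other 8 genes the intervals took in 0 or lay just above it (Slco1b2 0.00 to 0.58, Baat 0.02 to 0.50), and adjusted p-values by edgeR were 0.229 to 0.949.

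Between the sexes within WT mice, Slco1a1 and Slc10a1 stood apart in opposite directions. Slco1a1 was 25.1-fold higher in males (95% interval 9.87 to 64.0, edgeR adjusted p = 1.9e-05), and every male was above every female. Slc10a1 was lower in male WT than in every female WT mouse (log2 -0.73 ± 0.09, edgeR adjusted p = 1.52e-06). Cyp27a1 was 1.23-fold higher in males (95% interval 1.07 to 1.41, edgeR adjusted p = 0.0426), a call that 7 of the 28 single-mouse omissions removed (male WT 1, 2 or 3, or female WT 1, 3, 6 or 7, with log2 changes of 0.25 to 0.31), as did fitting with no filter (0.30, adjusted p = 0.0754 by edgeR). These were 2 genes higher and 1 lower in males, where 6.65% and 5.71% of tested genes passed. The remaining 7 did not pass under TMM scaling. With hepatocyte reference genes Baat passed as higher in males (log2 0.338, edgeR adjusted p = 0.0497).

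Between transgenic males and females, Slco1a1 was still 14.9-fold higher in males (95% interval 6.08 to 36.7, edgeR adjusted p = 6.7e-05). Slc10a1 did not pass (log2 -0.17, 95% interval -0.35 to 0.02, although with library size alone it did at -0.27 with an adjusted p of 0.0227 by edgeR), with 703 to 958 CPM in males and 793.5 to 978 CPM in females. Cyp27a1 was 1.43-fold higher in males with ranges apart (adjusted p = 0.000313 by edgeR), Baat 1.22-fold higher (adjusted p = 0.0137) and Nr0b2 2.29-fold higher (adjusted p = 0.0308). Cyp7a1 was lower in males, at 0.48 of the female level (95% interval 0.28 to 0.83, adjusted p = 0.0474 by edgeR). With hepatocyte reference genes Cyp27a1 (0.35, adjusted p = 0.0861 by edgeR) and Baat (0.13, adjusted p = 0.517) were not called, and Baat was not with library size alone (0.18, adjusted p = 0.115 by edgeR) or upper-quartile scaling (0.21, adjusted p = 0.0679). In this comparison 12.9% of tested genes passed as higher in males and 10.2% as lower.
The Nr0b2 call was lost without male SIRT6-tg mouse 7 (log2 0.84) or without female SIRT6-tg mouse 3, 4 or 7 (log2 1.10 to 1.16). It was also lost with no filter on low counts (1.20, adjusted p = 0.0571 by edgeR) and with 2 surrogate variables (0.52, adjusted p = 0.282). The Cyp7a1 call was lost in 19 of the 28 single-mouse omissions, with the smallest change without female SIRT6-tg mouse 7 (log2 -0.71). It was also lost with no filter (-1.05, adjusted p = 0.0852 by edgeR), with the replicate number as a block (-0.95, adjusted p = 0.0596), with 2 surrogate variables (-0.80, adjusted p = 0.157) and with a covariate for the exon-length slope of each library (-0.82, adjusted p = 0.176).

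The 4 groups were placed in order of mean CPM for each gene. Slc10a1 was lowest in male WT, apart from the rest, followed by female WT, male SIRT6-tg and female SIRT6-tg mice, whose neighbouring ranges overlapped, and Abcb11 had the same order with overlapping ranges. Slco1a1 had both female groups at the bottom and both male groups at the top, with no difference by genotype that passed. Cyp7a1 had female SIRT6-tg on top and 3 groups between means of 88.0 and 126 CPM with overlapping ranges. Cyp27a1 went up from female WT through female SIRT6-tg and male WT, neighbours that overlapped, to male SIRT6-tg, which stood above every mouse of the other groups. The means of Slco1a1 and Nr0b2 had the same order as those of Cyp27a1, Nr0b2 with overlapping ranges throughout.

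Over the 28 mice, 8 pairs of the genes known to be linked in regulation or transport were compared after removing each group's mean. Nr0b2 and Abcb11 moved in opposite directions (Pearson r = -0.665, permutation p = 0.00066, adjusted p over the 8 pairs = 0.00528, and Spearman rho = -0.608, adjusted p = 0.0148, n = 28). Without the 2 mice farthest from the median of Nr0b2, r was -0.523. The values within groups were -0.733 in male WT, -0.771 in male SIRT6-tg, -0.801 in female WT and -0.184 in female SIRT6-tg mice.
No other pair passed, Cyp7a1 with Cyp8b1 (r = 0.457) and Slc10a1 with Slco1b2 (r = 0.478) coming closest (both with an adjusted permutation p of 0.0859 and n = 28). For the feedback pairs, r was -0.297 for Nr0b2 with Cyp7a1, -0.277 for Nr0b2 with Cyp8b1 and -0.149 for Nr1h4 with Nr0b2. With hepatocyte reference scaling, 6 pairs passed by Pearson's r, Nr0b2 with Abcb11 among them (r = -0.556), the strongest being Slc10a1 with Slco1b2 (r = 0.812) and Nr1h4 with Abcb11 (r = 0.733, against 0.152 with TMM), each with an adjusted permutation p of 8e-05 and n = 28.

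Abcb11 and Nr0b2 also followed a feature of the libraries. Over 12320 genes, the slope of log2 CPM on log2 exon length, relative to each gene's mean, ran from -0.268 to 0.185 between libraries, lowest in male SIRT6-tg mouse 7 and, at -0.219, male WT mouse 6 (medians -0.004 in male WT, -0.028 in male SIRT6-tg, 0.099 in female WT and 0.107 in female SIRT6-tg). Abcb11, with 5146 exon bases, rose with this slope within groups (r = 0.882, rho = 0.796, permutation p = 1e-05 for both, the smallest these permutations can give, adjusted p over the 10 genes = 0.0001, n = 28, and r = 0.864 without the 2 farthest mice). Nr0b2, with the shortest exons of the 10 (1132 bases), fell with it (r = -0.694, rho = -0.653, permutation p = 7e-05 and 0.00056, adjusted p = 0.00035 and 0.0028, n = 28, and r = -0.681 without the 2 farthest mice). None of the other 8 passed, among them the similarly long Slco1a1 (r = -0.011) and Slco1b2 (r = -0.007).
With the part that follows this slope removed, r for Nr0b2 and Abcb11 was -0.157 (adjusted permutation p = 0.687, n = 28). With the slope as a covariate, an alternative chosen after seeing the data, Abcb11 passed in males (log2 0.54, edgeR adjusted p = 0.000101), as did Nr1h4 (0.30, adjusted p = 0.0146), so that 6 of the 10 did. The fit with 2 surrogate variables, which was not chosen in this way, also called 6 of the 10 in males, with Abcb11 at 0.42 (adjusted p = 0.00115 by edgeR) and Nr1h4 at 0.36 (adjusted p = 0.00117). Over all 21583 tested genes the slope covariate called 4271 as higher in males and the surrogate variables 4525, against 2090 in the main fit. With the slope as a covariate the Nr0b2 difference between transgenic males and females fell from 1.20 to 0.35 (adjusted p = 0.516 by edgeR). What sets this slope was not tested.

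**Figure D4:**
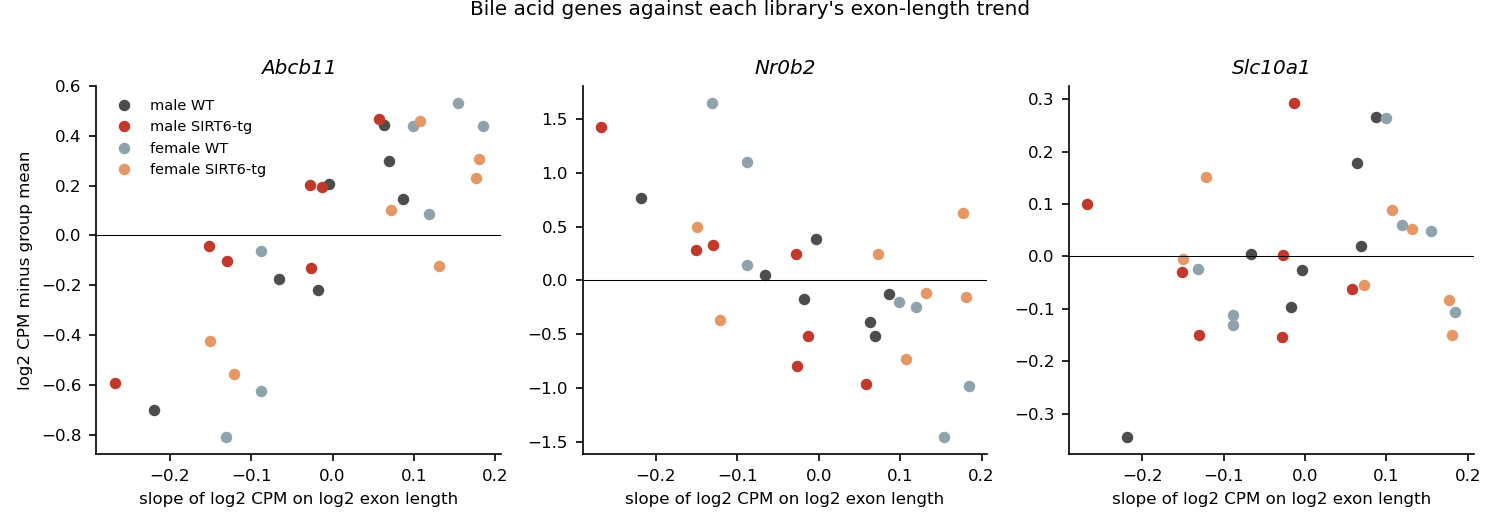
Each point is 1 of 28 livers. The x axis gives the library's slope of log2 CPM on log2 exon length over 12320 genes and the y axis the gene's log2 CPM minus its group mean. Abcb11 rises with the slope (r = 0.882), Nr0b2 falls (r = -0.694) and Slc10a1 shows no such line (r = 0.235).

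As a description, the gene most like each of the 10 across the 28 mice within groups was Bbox1 for Slc10a1 (r = 0.789), followed by Cyp2e1 (r = 0.712) and Rnf13 (r = 0.706). It was BC005537 for Cyp7a1 (r = 0.792), Hsd17b12 for Cyp8b1 (r = 0.793), Psmd2 for Cyp27a1 (r = 0.723) and Inca1 for Baat (r = 0.729). It was Rdx for Slco1b2 (r = 0.704), Gpc1 for Slco1a1 (r = 0.702) and Stard7 for Nr1h4 (r = 0.812). The highest values belonged to Abcb11 with Ap1g1 (r = 0.936) and Nr0b2 with Snrpd1 (r = 0.842), the pair of genes that followed the exon-length slope.

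The rest of the pathway was read from lists of other bile acid genes. Of 15 tested synthesis enzymes, 8 passed as higher and 1 as lower in male SIRT6-tg livers. Over all tested genes 9.68% passed as higher and 11.0% as lower. The median log2 change of the 15 was 0.41 against 0.06 over all tested genes. With library size alone 3 were higher and 1 lower (median 0.14 against -0.22), and with hepatocyte reference genes 0 and 1 (0.05 against -0.31). Of all 21583 tested genes, 210 passed as higher and 4084 as lower with library size alone, and 105 and 4035 with hepatocyte reference genes. The 4 with the lowest adjusted p among the 8 were Slc27a2, a very long-chain acyl-CoA synthetase of the peroxisome (999 to 1482 mean CPM, log2 0.57 ± 0.11), Hsd17b4, the peroxisomal bifunctional enzyme (0.40 ± 0.08), Acox2, the branched-chain acyl-CoA oxidase of side-chain shortening (0.46 ± 0.10), and Cyp7b1, the oxysterol 7-alpha-hydroxylase of the alternative route (118 to 230 mean CPM, log2 0.97 ± 0.22). Their adjusted p-values by edgeR were 0.000328, 0.000885, 0.00157 and 0.00174.
Of these, Slc27a2 (0.29) and Cyp7b1 (0.69) also passed with library size alone (adjusted p = 0.0304 and 0.0255 by edgeR). Ch25h, a cholesterol 25-hydroxylase known from macrophages, was lower under each scaling, on 50 reads over 7 male WT and 9 over 7 male SIRT6-tg libraries. In females 0 of these 15 passed by edgeR, where 0.0232% of all tested genes passed as higher and 0.00463% as lower. At an unadjusted p under 0.05 by edgeR stood 6 of the 15, where 5.62% of all tested genes did. Slc27a5, the bile acyl-CoA synthetase that acts just before Baat, was the 1 enzyme whose change differed between the sexes (0.55 ± 0.15 larger in males, edgeR adjusted p = 0.0309), with mean levels of 1001 and 1365 CPM in male WT and SIRT6-tg and 1163 and 1086 CPM in the female groups, a call made under TMM scaling alone and lost with RLE (0.51, adjusted p = 0.0556 by edgeR), upper-quartile (0.48, adjusted p = 0.0824) and library-size scaling (0.25, adjusted p = 0.268) and with hepatocyte reference genes (0.07, adjusted p = 0.758).

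Of 14 other genes listed as transporters of bile acids and bile lipids 2 passed as higher in males and none as lower, near the 9.68% of all tested genes that passed as higher. The list's median was 0.12 against 0.06 over all tested genes. The 2 were Abcg2 (log2 0.30 ± 0.09, edgeR adjusted p = 0.0121) and Ephx1 (0.30 ± 0.09, adjusted p = 0.0173), an epoxide hydrolase whose place among the transporters is uncertain. Neither passed under upper-quartile, library-size or hepatocyte scaling, where the list's medians were 0.04, -0.14 and -0.24. The canalicular phospholipid exporter Abcb4 (297 and 270 mean CPM) and the conjugate pump Abcc2 (506 and 465 mean CPM) had fitted values below 0 that did not pass. Of 19 other regulators 2 passed as higher in males, the forkhead factor Foxa2 (22.99 to 35.7 mean CPM, log2 0.635 ± 0.18, edgeR adjusted p = 0.0092) and Fgfr4, the receptor for the gut hormone that represses Cyp7a1 (0.27 ± 0.10, adjusted p = 0.0485), also near that share. Fgfr4 passed under TMM scaling alone (0.225 with RLE and 0.19 with upper-quartile scaling, adjusted p = 0.105 and 0.195 by edgeR). Neither passed with library size alone or hepatocyte reference genes, where the list's medians were -0.06 and -0.15. Vdr was lower under each scaling, on very few reads (34 over male WT and 4 over male SIRT6-tg libraries).
Of 9 enzymes that hydroxylate or conjugate bile acids for clearance 3 passed as higher in males, Cyp3a25 (log2 0.45 ± 0.12), Cyp2b10 (1.36 ± 0.38, from 2.91 to 7.38 mean CPM) and the bile acid sulfotransferase Sult2a8 (0.56 ± 0.19), with adjusted p-values of 0.00634, 0.0105 and 0.0348 by edgeR. Sult2a8 was not called with RLE (0.52, adjusted p = 0.0526 by edgeR) or upper-quartile scaling (0.48, adjusted p = 0.0799). With library size alone only Cyp2b10 passed (1.04, adjusted p = 0.0473 by edgeR), and with hepatocyte reference genes none did. In females 0 genes of the 3 lists passed by edgeR, where 0.0232% of all tested genes passed as higher and 0.00463% as lower. An unadjusted p under 0.05 by edgeR was reached by 1 gene of each list and by 5.62% of all tested genes. Cyp3a25, Cyp2b10 and Sult2a8 have near copies in their families. Reads that fit several copies are missing from their counts, which are uncertain for that reason.

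Sex differences in WT mice reached into each list, with 2 enzymes higher and 4 lower in males, 2 and 6 transporters, 1 and 3 regulators, and 2 and 4 clearance enzymes, where 6.65% of all tested genes passed as higher and 5.71% as lower. The 1 regulator of 19 is near that share. With library size alone and with hepatocyte reference genes, 3 and 1 transporters passed as lower. Of all 21583 tested genes, 555 and 298 passed as lower under these scalings, against 1233 under TMM scaling. Cyp7b1 was 2.74 ± 0.23 higher in males on the log2 scale and the carrier protein Scp2 0.91 ± 0.12 higher, while the reductase Akr1d1 (-0.90 ± 0.15) and the oxysterol hydroxylase Cyp39a1 (-1.13 ± 0.20) were lower. Among the genes listed as transporters Abcg2 (0.92 ± 0.09) and the epoxide hydrolase Ephx1 (0.43 ± 0.09) were higher in males, and Slco1a4 (-1.18 ± 0.16) and the sterol transporter subunit Abcg5 (-0.75 ± 0.16) lower. Of the regulators Mafg was higher (0.40 ± 0.09), and Ppargc1a (-0.97 ± 0.19) and Nr5a2 (-0.43 ± 0.10) lower. Of the clearance enzymes Ugt2b1 (0.73 ± 0.14) and Sult2a8 (0.75 ± 0.19) were higher and Cyp2b10 lower (-3.11 ± 0.39), and Sult2a1 held 6732 reads over 7 female WT and 2 over 7 male WT libraries. Each of these passed by edgeR (adjusted p of 0.00838 or less), and with library size alone or hepatocyte reference genes each kept its direction and passed except Nr5a2 (-0.24 and -0.14) and, with hepatocyte reference genes, Abcg5 (-0.45).

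**Figure D5:**
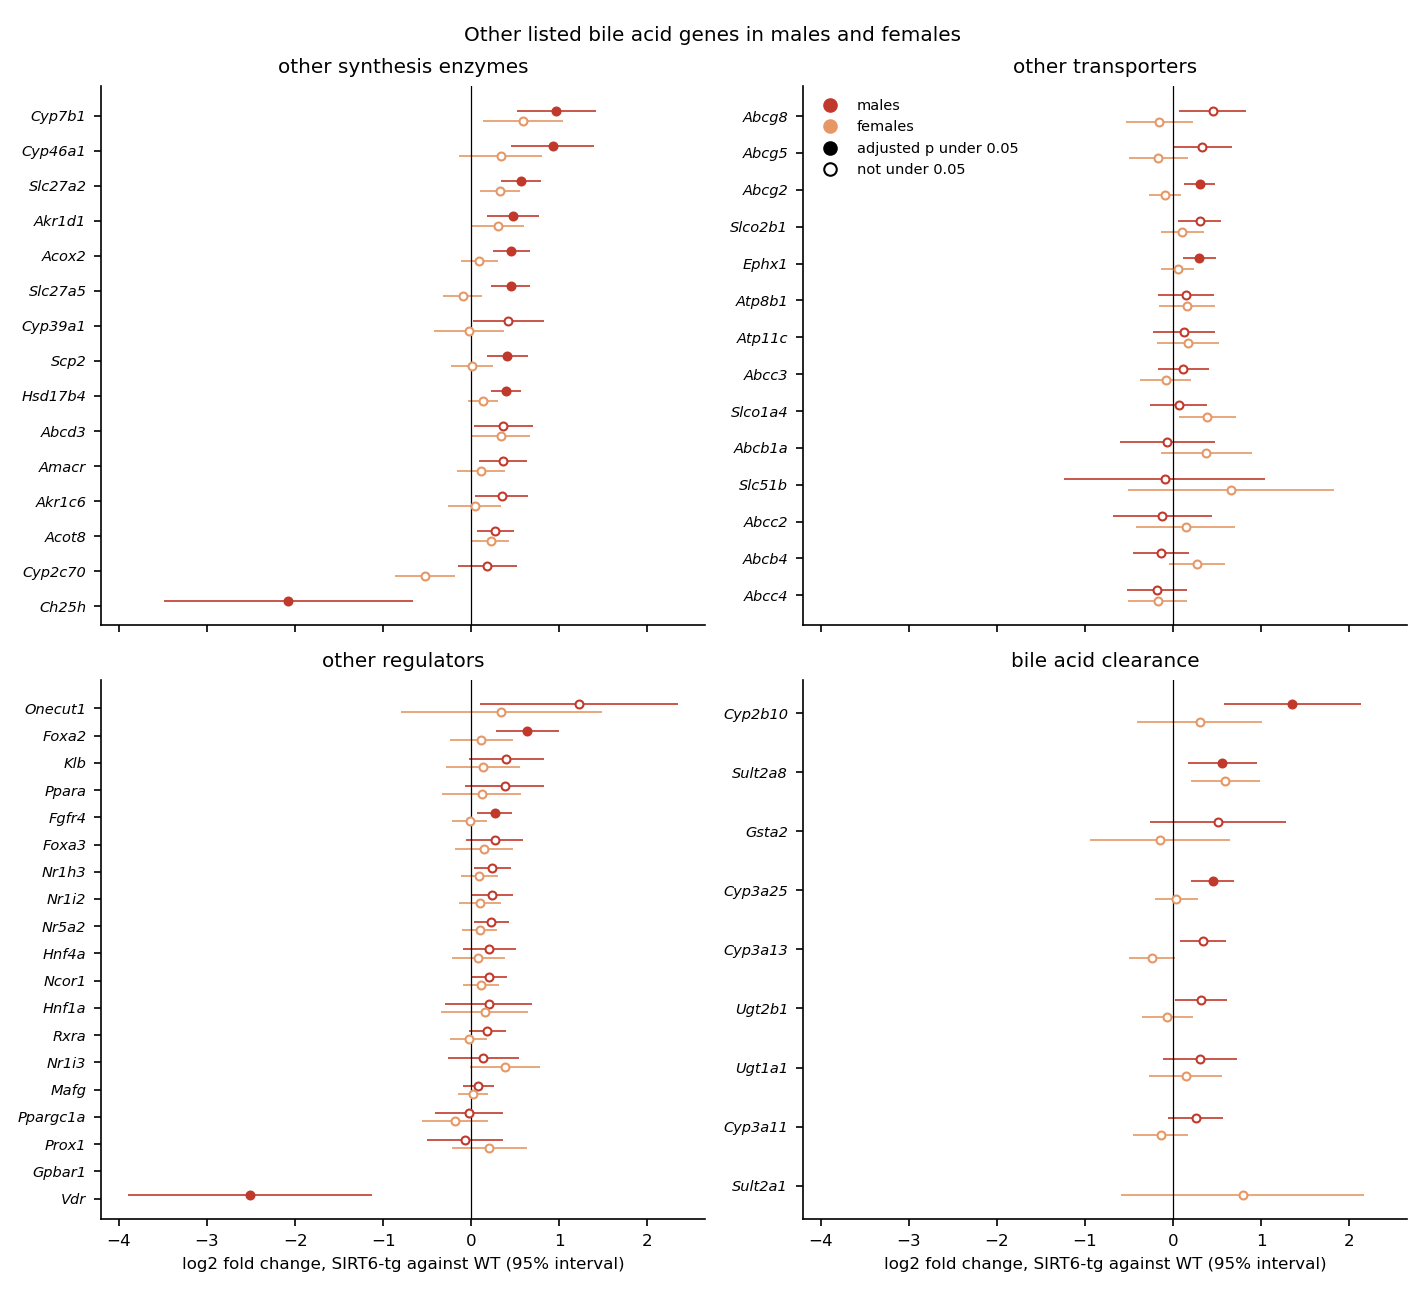
Fitted log2 fold changes (TMM scaling) of SIRT6-tg against WT with 95% intervals for the other listed bile acid genes, males in red and females in orange, filled where the adjusted p was under 0.05. Genes with a mean under 0.1 CPM in both groups of a comparison are not drawn. Filled points are male ones, 8 higher among synthesis enzymes, 2 among transporters, 2 among regulators and 3 among clearance enzymes, and 1 lower each for Ch25h and Vdr.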

How the data were processed

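Per the labels, liver RNA of 28 mice was sequenced, aligned with STAR 2.5.0a and counted per gene with HTSeq against the mouse genome. The authors deposited raw read counts for 49585 Ensembl genes, and the strand setting of the counting was not given in the sources used here. Totals were 18758863 to 35393069 counts per library, and every column mapped to a sample (0 left out). Libraries of a group differed by at least 13.3 chi-square per gene, so none was taken as a duplicate.

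Groups came from the labels. Genes with a mean of at least 0.5 counts after DESeq2 size factors (21583) were fitted in R 4.3.3 with edgeR 4.0.16 (TMM, robust quasi-likelihood, 4 group means, all 28 libraries) and called at an adjusted p under 0.05 (Benjamini-Hochberg over all genes tested). Correlations used log2 CPM with a prior count of 2, group means removed and 100000 two-sided permutations within groups. Alternatives were other scalings and filters, DESeq2 1.42.0, separate fits by sex, a replicate block, 2 surrogate variables (sva 3.50.0), each library left out and, after the data were seen, an exon-length covariate. Fits were tested on simulated data with few genes changed and the TMM scaling kept, which cannot show which scaling is right for the male comparison. The study's methods state that WT and transgenic mice shared cages and that comparisons were between littermates. The labels name no litter or cage, so the fits treated the mice as independent. The p-values therefore take no account of shared litters or cages.

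The 10 genes, the lists and the tests were chosen with earlier results of these data known. Named from the other lists were up to 4 genes in each direction with the lowest adjusted p in each genotype comparison (2 between the sexes). Abcb4 and Abcc2 were named after their values were seen.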

Additional observations from a re-analysis of the deposited data

Results flagged for a closer look

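In 5 of 40 groups of 7 mice the highest mouse stood far from the rest by Dixon's test on CPM. With normally distributed values chance does this in about 1 group in 20. CPM can be skewed and the groups of different genes share mice, so these shares cannot be compared directly. Slco1a1 was at 54.19 CPM in female WT mouse 4 (next 15.95) and at 115.4 CPM in female SIRT6-tg mouse 7 (next 23.19), and without these mice the female log2 change was 1.996 and 0.202. Nr0b2 was at 61.04 CPM in male SIRT6-tg mouse 7 (next 28.52), without which the male log2 change was 0.47 in place of 0.84. Baat was at 279.5 CPM in male WT mouse 1 (next 219.9) and at 243.1 CPM in female WT mouse 2 (next 215.8).

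The genotype change of Slc10a1 differed between the sexes, by 0.558 on the log2 scale (edgeR adjusted p = 0.00832), a call that held with each of the 28 mice left out in turn (0.50 to 0.61) but not with library size alone (0.27) or hepatocyte reference genes (0.11). As Sirt6 was higher in male than in female SIRT6-tg mice, sex and transgene level cannot be told apart here.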

How the results depend on the processing

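Values are log2 changes or counts of calls. With library size alone, Cyp7a1 in males was -0.124. The male-minus-female differences were -0.177 for Cyp8b1, -0.072 for Cyp27a1, -0.001 for Slco1b2, -0.167 for Nr1h4 and -0.035 for Baat. Male against female WT gave 0.033 for Abcb11, 0.085 for Slco1b2 and 0.155 for Nr1h4, and SIRT6-tg gave -0.012 for Nr1h4. Of the 10 genes 1 was then higher in males, 0 passed in the male-minus-female difference and 2 were lower in male than female SIRT6-tg mice, and over all genes 1863 passed in the difference and 4212 between WT sexes. With hepatocyte reference genes, males gave -0.211 for Cyp7a1, -0.030 for Abcb11, -0.005 for Slco1a1 and -0.083 for Nr1h4. The differences were -0.347 for Cyp8b1, -0.250 for Cyp27a1, -0.155 for Slco1b2, -0.344 for Nr1h4 and -0.212 for Baat. WT sexes gave 0.101 for Abcb11, 0.192 for Slco1b2 and 0.283 for Nr1h4, and SIRT6-tg -0.060 for Nr1h4. Of the 10 genes 1 was higher in males, 0 higher and 1 lower in the difference, and 2 higher in male SIRT6-tg mice, and all genes gave 13 in females, 2282 in the difference and 5292 between WT sexes.

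Nr0b2 in females was -0.006 with upper-quartile scaling and -0.009 with filterByExpr. With 2 surrogate variables Abcb11 was 0.091 in the difference and 0.087 between SIRT6-tg sexes, 0 of the 10 were lower there, and all genes gave 7434 in males, 15 in females, 3182 in the difference and 4819 between WT sexes. With the exon-length covariate Abcb11 was 0.185, 0.026 and 0.211 in the difference, between WT and between SIRT6-tg sexes, 0 of the 10 were lower in the last, and all genes gave 7180, 15, 2575 and 4536. DESeq2 called 1 of the 10 and 39 genes in females, and separate fits by sex 2 genes. With no filter 1 of the 10 was higher between WT sexes and 0 lower between SIRT6-tg sexes. The replicate block gave the same counts, 1 (Cyp27a1 0.298, adjusted p = 0.0749 by edgeR) and 0 (Cyp7a1 -0.947, 0.0596), and 4209 genes in males against 4467. Mice that share a number correlated at -0.35 to 0.33 and at most 1 of 7 correlated best with its own number, so the numbers were not taken as pairs.

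Correlations changed too. With hepatocyte scaling Nr0b2 with Cyp7a1 was -0.371, Cyp7a1 with Cyp8b1 0.562, Nr1h4 with Nr0b2 -0.475, Nr1h4 with Abcb11 0.733 and Slc10a1 with Slco1b2 0.812. With the exon-length part removed Nr0b2 with Abcb11 was -0.157, Nr1h4 with Nr0b2 0.008 and Nr1h4 with Abcb11 -0.096.

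With single mice left out, Abcb11 in the difference ran from -0.151 to 0.042, Cyp8b1 from -0.081 to 0.379 and Slco1a1 from -1.647 to 0.129. Cyp7a1 in males ran from -0.005 to 0.319 and Nr0b2 in females from -0.155 to 0.407. Baat and Nr1h4 between WT sexes ran from -0.018 to 0.073 and from -0.081 to 0.038. Genes called in females ran from 3 to 16, of the 10 genes 1 to 2 were higher between WT sexes and 0 to 1 lower between SIRT6-tg sexes. The 4 genes called in males stayed called in each omission. The cause of these changes was not tested.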

Other observations

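Hsd3b7, an enzyme of bile acid synthesis, had 0 counted reads in all 28 libraries, and Slc51a, a basolateral bile acid transporter subunit, had 3 over all of them. Why Hsd3b7 had no counts was not tested, so its 0 cannot be read as absence of its RNA from the liver.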
